A study of Mus musculus with 6 samples.

Results

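The *Trav11* amplicons of pre-selection thymocytes from WT and SKG mice were compared along the whole *Traj* array. They were the libraries labelled TRAV11, 2 of the 6 in the series, and within them sequences were kept when the V assignment listed *Trav11* or *Trav11d* and the J assignment listed 1 *Traj* gene. The WT library was from BALB/c mice and the SKG library from mice of the same background that carry a hypomorphic mutation of *Zap70*, the kinase that transmits the TCR signal. According to the paper's methods, WT and SKG mice of the F2 of a cross between BALB/cJ and SKG mice were bred separately and their F3 offspring were used, and no treatment is given for either group. The cells were CD4+CD8α+ double-positive (DP) thymocytes without surface TCRβ, CD69 or CD5, which have not yet been positively selected. The labels name genomic DNA as the molecule, whereas the extraction protocol and the paper describe cDNA made from RNA, and the number of mice behind each library is not stated.

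In DP thymocytes the *Tcra* locus is assembled by joining a *Trav* to a *Traj* segment. The first joins use *Traj* segments at the end of the array next to the *Trav* segments, and later rounds replace a join by deleting it and moving to *Traj* segments nearer the constant region, until the cell is selected or dies. The join of *Trav11* with *Traj18* encodes the invariant α chain of iNKT cells, which recognise glycolipids on CD1d. RAG recombinase cuts at the recombination signal beside each segment, which consists of a heptamer at the coding end, a spacer and a nonamer.

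The signals of the *Trav* segments are shown because the 2 genes that the primer amplifies are alike there and unlike the *Trav* segments of the other amplicons. Each sequence is from the plus strand of chromosome 14 of NCBIM37, begins with the last 15 coding bases, and has the heptamer and the nonamer, separated by 23 bases, in capitals. The lists hold no coordinates, and the reference is of C57BL/6 mice, so the alleles of BALB/c mice may differ.
Trav11 (chr14:54139520-54139573): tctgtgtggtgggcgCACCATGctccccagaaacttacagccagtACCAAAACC
Trav11d (chr14:53444574-53444627): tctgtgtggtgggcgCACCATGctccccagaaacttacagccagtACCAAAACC
Trav9d-3 (chr14:53540773-53540826): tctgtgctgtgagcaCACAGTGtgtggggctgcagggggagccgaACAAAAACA
Trav19 (chr14:54465488-54465541): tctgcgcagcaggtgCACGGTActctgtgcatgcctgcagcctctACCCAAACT
Exon 2 of *Trav11* and of *Trav11d* was identical over 290 of 290 bases. The heptamer of both reads CACCATG, which only these 2 of 81 *Trav* segments carried. The sequence CACAGTG, which is the most frequent, stood at 62 of the 81 (76.5%), *Trav9d-3* among them.

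The next sequences are 3 of the *Traj* segments with the most sequences in both libraries. Each starts with the nonamer and the heptamer, in capitals, which here lie 12 bases apart, and ends with the last base of the segment.
Traj18 (chr14:54820424-54820517): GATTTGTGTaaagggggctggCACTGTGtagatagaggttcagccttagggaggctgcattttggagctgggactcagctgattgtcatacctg
Traj32 (chr14:54805748-54805841): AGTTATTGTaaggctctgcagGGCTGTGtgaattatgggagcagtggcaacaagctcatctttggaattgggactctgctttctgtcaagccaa
Traj6 (chr14:54832335-54832424): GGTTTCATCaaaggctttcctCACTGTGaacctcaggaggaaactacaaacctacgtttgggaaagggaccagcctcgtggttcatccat
The following segments are among those whose shares differed by over 1.5-fold between SKG and WT, in a functionality class where they reached 1% of 1 library. *Traj28* did not reach 1% there and was added after its values were seen. *Traj26* and *Traj9* also met the rule, in unproductive sequences, but are not shown.
Traj57 (chr14:54778152-54778244): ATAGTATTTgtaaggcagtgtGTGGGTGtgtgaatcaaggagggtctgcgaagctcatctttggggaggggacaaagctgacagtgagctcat
Traj53 (chr14:54782291-54782384): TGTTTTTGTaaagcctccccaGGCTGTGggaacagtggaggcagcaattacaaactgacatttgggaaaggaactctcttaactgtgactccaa
Traj50 (chr14:54787237-54787327): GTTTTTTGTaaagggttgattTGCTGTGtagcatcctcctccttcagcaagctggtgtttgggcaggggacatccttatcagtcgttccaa
Traj31 (chr14:54807542-54807626): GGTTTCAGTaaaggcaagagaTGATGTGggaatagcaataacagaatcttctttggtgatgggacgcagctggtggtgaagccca
Traj28 (chr14:54811308-54811400): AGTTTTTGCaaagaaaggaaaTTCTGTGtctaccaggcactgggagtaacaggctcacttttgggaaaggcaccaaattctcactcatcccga
The last 3 segments are examples from 8 that were nearly unused with *Trav11*. These 8 have no stop codon in their germline reading frame and are followed by the GT of a splice donor.
Traj44 (chr14:54793337-54793425): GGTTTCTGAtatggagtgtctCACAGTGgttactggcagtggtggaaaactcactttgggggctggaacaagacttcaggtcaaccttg
Traj30 (chr14:54809513-54809599): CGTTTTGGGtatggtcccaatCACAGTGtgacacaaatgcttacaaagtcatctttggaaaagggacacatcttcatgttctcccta
Traj7 (chr14:54831117-54831203): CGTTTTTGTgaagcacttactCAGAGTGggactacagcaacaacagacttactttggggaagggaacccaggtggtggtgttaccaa
In both preceding sets of *Traj* segments the heptamer ends in TGTG, except in *Traj57*, where it ends in GGTG. In *Traj44*, *Traj30* and *Traj7* it ends in AGTG. The others of those 8 do not share this ending. *Traj29* ends in TGTG, *Traj5* in GGTG, *Traj25* in TGTA, *Traj19* in TCTG and *Traj59* in CATC.

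The WT list held 249693 sequences and the SKG list 275177, of which 249466 and 274783 were kept. Productive sequences numbered 137708 in the WT library and 152879 in the SKG library, and unproductive ones 111758 and 121904. Every kept sequence listed both *Trav11* and *Trav11d*, apart from 2 SKG sequences that listed *Trav11* alone, so the 2 genes could not be compared. With 1 library a side no difference has a replicate check, and no test was made. Intervals are 95% Wilson intervals for shares and normal intervals for log2 ratios, and they cover counting error only, since PCR products without molecular identifiers are not independent molecules.

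In both genotypes *Trav11* used a restricted set of segments from every region of the array. Of 59 annotated *Traj* segments, 38 had at least 10 sequences over both libraries, as did *Traj47*, which the annotation does not name. In productive sequences 8 segments in the WT library and 7 in the SKG library held 50% of the total, and 19 in each held 90%. For *Trav9d-3* 50% took 13 segments in each genotype and 90% took 33 in WT and 32 in SKG libraries. For *Trav19* 50% took 4 segments in WT and 5 in SKG libraries, and 90% took 17 and 20. The inverse Simpson index, the number of equally used segments that would give the same evenness, was 19.1 in the WT and 18.5 in the SKG *Trav11* library, against 33.5 and 32.2 for *Trav9d-3* and 11.1 and 12.2 for *Trav19*. By this index and by the count for 50% *Trav11* stood between the other amplicons in both genotypes, but by the count for 90% only in WT libraries.

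**Figure D1:**
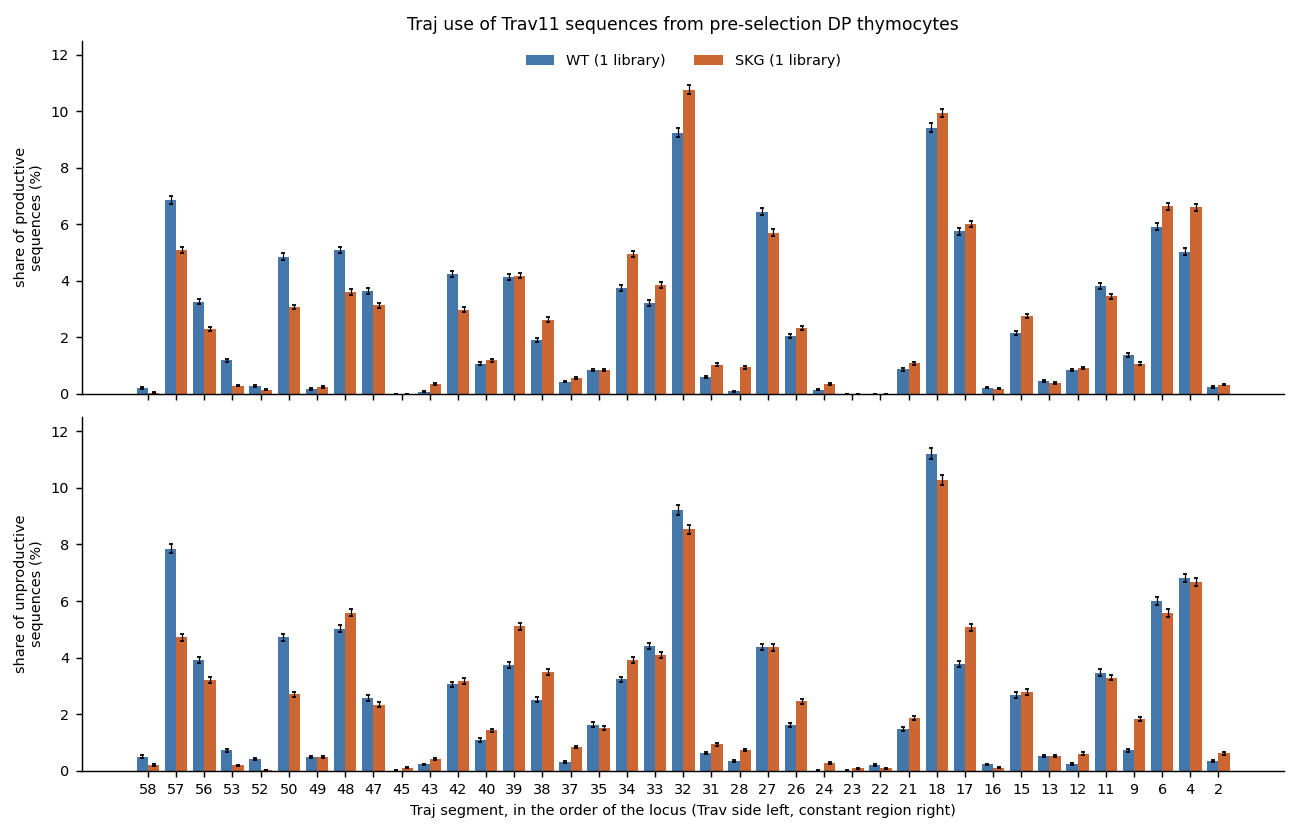
Share of productive (top) and unproductive (bottom) *Trav11* sequences at each *Traj* segment with at least 10 sequences, in percent, for the WT and the SKG library. Bars are shares of 1 library each and lines their 95% Wilson intervals. High bars stand at *Traj57* near the *Trav* side, at *Traj32* and *Traj18* further along, and at the neighbouring *Traj6* and *Traj4* near the constant region, in both genotypes.

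Of the most used segments, *Traj18*, the iNKT cell segment, held 9.43% (9.28 to 9.58) of the productive sequences in the WT and 9.95% (9.80 to 10.1) in the SKG library. Its log2 ratio of SKG to WT share, with 0.5 added to each count here and below, was 0.08 in productive and -0.13 in unproductive sequences. *Traj32* held 9.24% (WT) and 10.8% (SKG) of productive sequences, a log2 ratio of 0.22, and 9.21% and 8.54% of unproductive ones, a log2 ratio of -0.11. For both segments the ratio was above 0 in productive and below 0 in unproductive sequences. *Traj6* went the same way, with 5.92% and 6.64% of productive sequences and 5.98% and 5.57% of unproductive ones. *Traj4*, near the constant region, held 5.04% of productive sequences in the WT and 6.60% in the SKG library (log2 ratio 0.39), and 6.80% and 6.68% of unproductive ones (-0.03). For *Traj17* the shares were 5.76% and 6.01% of productive and 3.78% and 5.07% of unproductive sequences. *Traj27* was the only one of the 5 leading WT segments besides *Traj57* with a lower productive share in the SKG library, 5.71% against 6.45%, while its unproductive shares were 4.36% (SKG) and 4.37% (WT). *Traj33*, the segment of the invariant chain of MAIT cells, is no leading segment and was added after its values were seen. It held 3.22% (WT) and 3.86% (SKG) of productive sequences and 4.41% and 4.09% of unproductive ones.

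The SKG library used the segments next to the *Trav* end less than the WT library did, in productive and in unproductive sequences alike. The blocks that follow were drawn with earlier results known and are a description. *Traj61* to *Traj45* held 25.6% (25.3 to 25.8) of the productive sequences in the WT and 17.9% (17.7 to 18.1) in the SKG library, 7.64 percentage points less. The same block held 26.2% (25.9 to 26.4) of unproductive sequences in the WT and 19.5% (19.3 to 19.7) in the SKG library, 6.67 points less. In each class 8 of its 9 segments that reached 0.1% of 1 library had a log2 ratio below 0, with a median of -0.52 in productive and -0.73 in unproductive sequences. The exception was *Traj49* in productive sequences (0.17% in the WT, 0.24% in the SKG library, log2 ratio 0.49) and *Traj48* in unproductive ones (5.01% and 5.59%, 0.16). In unproductive sequences the interval of *Traj49* (-0.024) included 0. In the blocks described next, in order, 1 of 11, 2 of 8 and 3 of 8 segments were below 0 in productive sequences. In unproductive sequences 3 of 11, 4 of 9 and 3 of 8 were.

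The other blocks all had higher shares in the SKG library, and the block next in order had the largest increase. *Traj44* to *Traj31* held 29.5% of productive sequences in the WT and 33.4% in the SKG library, 3.85 points more. Of its 11 segments 10 had a ratio above 0, but the intervals of *Traj39* (0.024) and *Traj35* (0.014) included 0. In unproductive sequences this block held 29.96% and 33.4%, with 8 of 11 segments above 0, of which *Traj42* (0.058) had an interval that included 0. *Traj30* to *Traj16* held 25.0% and 26.6% of productive sequences, 1.53 points more in the SKG library, and 23.2% and 25.3% of unproductive ones. *Traj15* to *Traj1*, nearest the constant region, held 19.9% and 22.1% of productive sequences, 2.27 points more, and 20.7% and 21.9% of unproductive ones. Counted from the constant region upward, the cumulative share of the SKG library exceeded that of the WT library by at most 8.63 points, reached at *Traj40*, in productive sequences. In unproductive sequences the largest gap was 7.10 points and came nearer the *Trav* end, at *Traj48*.

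**Figure D2:**
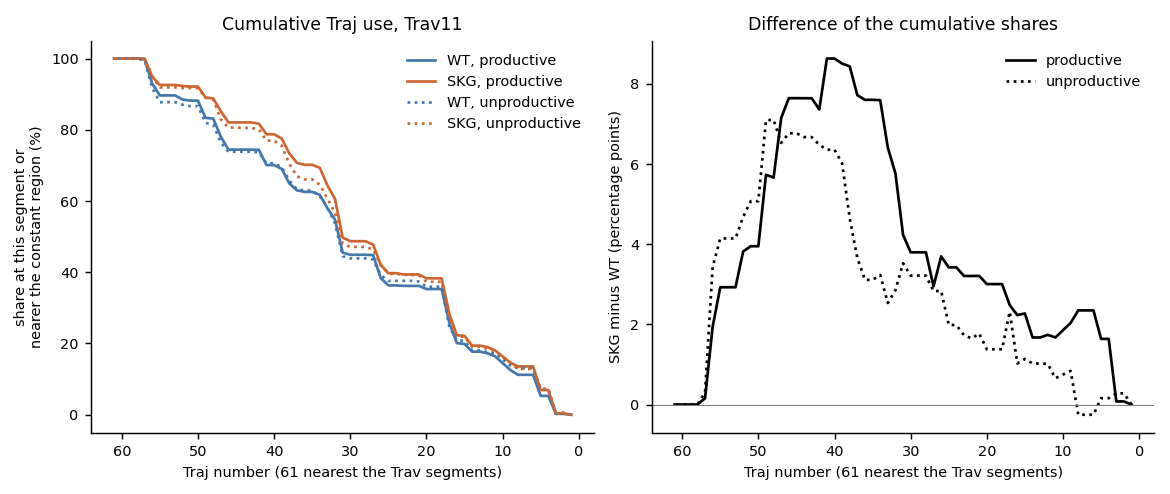
Left, share of *Trav11* sequences, in percent, at each *Traj* segment or nearer the constant region, for each library and functionality class. Right, the SKG minus the WT curve in percentage points. The difference rises steeply from *Traj57* on, peaks at 8.63 points at *Traj40* (productive) and 7.10 points at *Traj48* (unproductive), and declines toward the constant region.

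Put as a distance, 10.5% of the productive sequences of one library would have to change segment to match the other, and 10.4% of the unproductive ones. The productive and the unproductive sequences of the same library differed by nearly as much, by 10.4% in the WT and 9.43% in the SKG library. The same distance between WT and SKG productive sequences was 8.61% for *Trav9d-3* and 10.9% for *Trav19*. Between amplicons it was several times larger. *Trav11* differed from *Trav9d-3* by 47.8% in WT and 47.5% in SKG libraries, and from *Trav19* by 59.5% and 62.1%.

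Among single segments, 36 reached 0.1% of the productive sequences of 1 library, of which 4 were past 1.5-fold higher in the SKG library (11.1%) and 4 were past 1.5-fold lower (11.1%). In unproductive sequences 8 of 37 were higher (21.6%) and 7 lower (18.9%). *Traj43*, *Traj28* and *Traj24* were higher and *Traj58*, *Traj53*, *Traj52* and *Traj50* lower in both classes. Those of them that had under 1% of the sequences were named after their values were seen.

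Of the segments that reached 1%, *Traj53* differed most. It held 1.19% (1.131 to 1.245, 1634 sequences) of the productive sequences in the WT and 0.296% (0.270 to 0.324, 452 sequences) in the SKG library, a log2 ratio of -2.004 (-2.15 to -1.85). In unproductive sequences its shares were 0.717% and 0.180%, a log2 ratio of -1.99 (-2.20 to -1.77), so that the share was 4.01-fold lower in the productive and 3.97-fold lower in the unproductive class. With *Trav9d-3* the productive shares of *Traj53* were 1.87% in WT and 1.32% in SKG libraries, and with *Trav19* 7.77% and 8.29%.

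*Traj50* held 4.86% (4.75 to 4.97) of the productive sequences in the WT and 3.08% (2.99 to 3.16) in the SKG library (log2 ratio -0.66), and 4.72% and 2.69% of the unproductive ones (-0.81). *Traj57* passed 1.5-fold only in unproductive sequences, with 7.85% in the WT and 4.72% in the SKG library (-0.73). Its productive shares were 6.87% and 5.09% (-0.43). *Traj58* was low in both libraries, with 279 productive WT and 71 productive SKG sequences (0.203% and 0.0464%, log2 ratio -2.12) and 555 and 234 unproductive ones (-1.37). *Traj56* and *Traj48* had lower productive shares in the SKG library without passing the fold, 2.29% against 3.27% (-0.52) and 3.61% against 5.10% (-0.50).

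*Traj28* showed the highest ratio of the productive sequences. It held 0.0973% (134 sequences) in the WT and 0.944% (1443 sequences) in the SKG library, a log2 ratio of 3.27 (3.02 to 3.53). In unproductive sequences it held 0.342% and 0.730%, a log2 ratio of 1.09 (0.92 to 1.27), so the size of the difference depended on the class. With *Trav9d-3* its productive shares were 1.132% (WT) and 0.924% (SKG), and with *Trav19* 0.232% and 0.0948%. *Traj43* behaved alike with *Trav11*, at 0.0828% and 0.362% of productive (log2 ratio 2.13) and 0.218% and 0.409% of unproductive sequences (0.91). *Traj31* held 0.599% of productive sequences in the WT and 1.04% in the SKG library (0.79), and 0.617% and 0.924% of unproductive ones (0.58, just inside 1.5-fold).

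Other segments passed 1.5-fold in unproductive sequences alone. *Traj9* held 0.719% of these in the WT and 1.81% in the SKG library (log2 ratio 1.33), whereas its productive shares were 1.38% and 1.06% (-0.37), in the opposite direction. *Traj26* held 1.60% and 2.45% of unproductive sequences (0.62) and 2.05% and 2.33% of productive ones (0.18). Of the remaining segments, *Traj37*, *Traj12* and *Traj2* were past the fold upward, with unproductive log2 ratios of 1.52, 1.33 and 0.89, and *Traj22* and *Traj16* downward, at -1.34 and -1.06. These 5 had under 1% of unproductive sequences in either library.

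**Figure D3:**
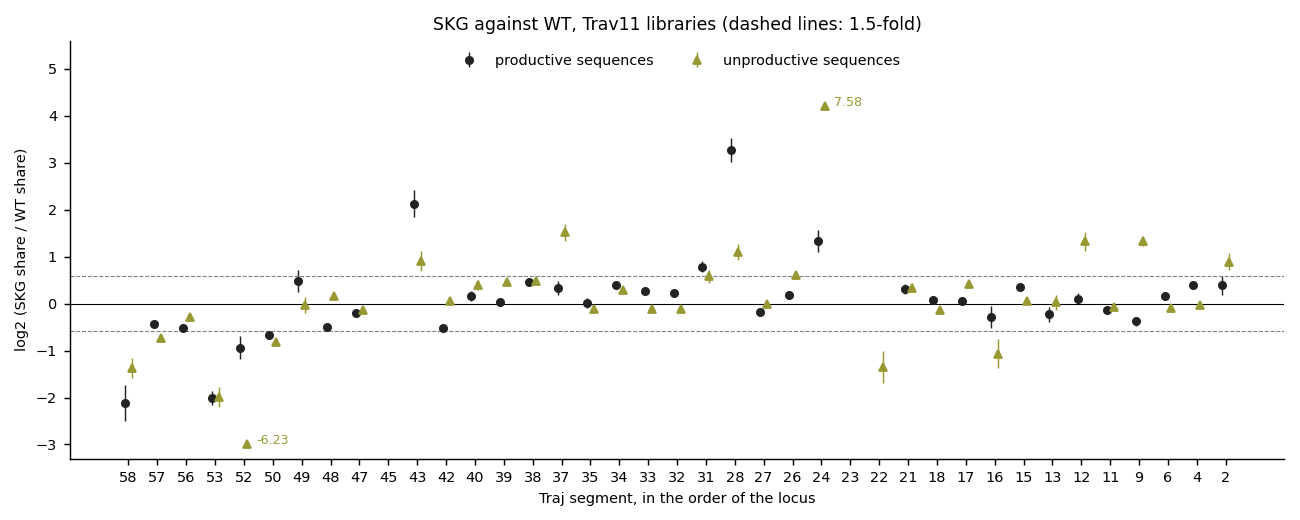
Log2 of the SKG share divided by the WT share at each *Traj* segment that reached 0.1% of 1 library, for productive (circles) and unproductive (triangles) *Trav11* sequences. Lines are 95% counting intervals, dashed lines mark 1.5-fold, and *Traj52* and *Traj24* (unproductive) are drawn at the edge with their values. Points from *Traj58* to *Traj47* lie mostly below 0 in both classes.

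Some scarce segments were split unevenly between the classes, which the counts show more plainly than ratios. Others were less so, as *Traj16*, with 313 productive and 242 unproductive WT sequences and 286 and 126 in the SKG library. *Traj52* had 383 productive and 446 unproductive sequences in the WT library but 222 and 6 in the SKG library. *Traj24* had 194 and 1 in the WT library and 542 and 312 in the SKG library. *Traj22* was almost wholly unproductive, with 4 productive and 224 unproductive WT sequences and 0 and 96 in the SKG library. *Traj45* and *Traj23* had no sequence in the WT library (0 of 249466, which allows a share of up to 0.00120%) and 1 productive and 117 unproductive, and 2 productive and 98 unproductive, in the SKG library. The split of *Traj23* was not particular to *Trav11*. With *Trav9d-3* 135 of 4832 *Traj23* sequences were productive in WT and 18 of 1916 in SKG libraries, and with *Trav19* 8 of 984 and 4 of 503. *Traj22* and *Traj45* differed, with 5749 of 8587 and 2101 of 3858 *Trav9d-3* sequences productive in WT libraries. Whether the *Trav11* counts of these scarce segments come from few rearrangements listed in many variant copies was not tested, since junction sequences were not analysed here.

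The productive share over all segments was 55.2% (55.0 to 55.4) in the WT and 55.6% (55.5 to 55.8) in the SKG library, 0.435 percentage points higher. Single segments moved by far more than that. Over the 23 segments that reached 1% of all sequences in both libraries, the productive share ran from 38.9% to 70.2% in the WT and from 41.4% to 62.9% in the SKG library, and 11 were higher and 12 lower in the SKG library, with a median absolute difference of 4.94 points. *Traj9* differed most among them, at 70.2% in the WT and 42.4% in the SKG library, 27.9 points apart. Over the 14 segments under 1% with at least 50 sequences in each library the median absolute difference was 11.6 points, and the largest was 51.2 points at *Traj52*.

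Among the segments that reached 1% of all sequences, some had a low or a high productive share in both libraries. *Traj35* was lowest, at 38.9% (WT) and 41.4% (SKG), followed by *Traj21* at 42.5% and 42.2% and *Traj38* at 48.4% and 48.6%. *Traj27*, at 64.5% and 62.1%, *Traj47*, at 63.5% and 62.9%, and *Traj17*, at 65.3% and 59.8%, were highest over both libraries together. Of segments named above, *Traj48* was productive in 55.6% of WT and 44.7% of SKG sequences and *Traj57* in 51.9% and 57.5%, while the scarcer *Traj53* stood at 67.1% and 67.3%. *Traj18* was productive in 50.9% of WT and 54.8% of SKG sequences.

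**Figure D4:**
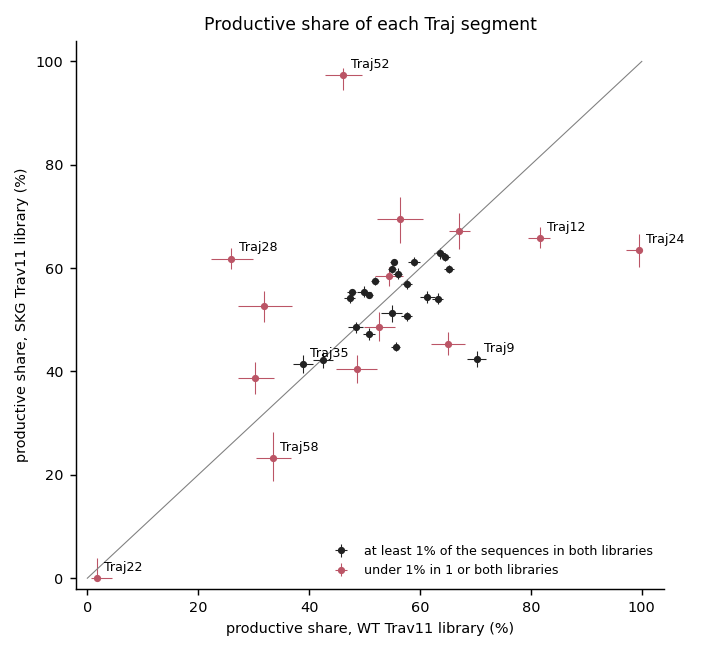
Percentage of sequences that were productive at each *Traj* segment in the WT (x axis) and the SKG (y axis) *Trav11* library, for segments with at least 50 sequences in each. Lines are 95% Wilson intervals and the diagonal marks equal shares. Segments that reached 1% in both libraries lie between 38.9% and 70.2%, and scarcer segments such as *Traj52*, *Traj24* and *Traj28* lie far from the diagonal.

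A further set of segments was hardly used with *Trav11* in either genotype. The 21 annotated segments with under 10 sequences over both libraries had 7 sequences in all. Of these, 9 have a stop codon in their germline reading frame (*Traj61*, *Traj60*, *Traj55*, *Traj54*, *Traj46*, *Traj41*, *Traj36*, *Traj20* and *Traj3*), and 4 more are not followed by the GT of a splice donor (*Traj51*, *Traj14*, *Traj8* and *Traj1*). Neither feature is found in the other 8, *Traj59*, *Traj44*, *Traj30*, *Traj29*, *Traj25*, *Traj19*, *Traj7* and *Traj5*. *Traj30* had 1 sequence in each *Trav11* library, while it held 1.86% of *Trav9d-3* sequences in WT and 2.48% in SKG libraries. *Traj7* had none, against 3.34% and 3.89% with *Trav9d-3*, and *Traj5* and *Traj44* had none, against 1.97% and 2.02%, and 0.524% and 0.545%. *Traj30*, *Traj7*, *Traj5* and *Traj44* were thus found joined to another *Trav* segment in the same kind of thymocytes. With *Trav19*, *Traj30* held 0.3785% in WT and 0.2989% in SKG libraries, and *Traj44* 0.8191% and 0.6455%. *Traj7* and *Traj5* were scarce with *Trav19* as well, at 0.0381% and 0.0147% in WT libraries and without a sequence in SKG libraries. Scarcity was not particular to *Trav11* for most of the 21. *Traj59*, *Traj29* and *Traj19* had no *Trav9d-3* sequence in either genotype, and *Traj25* held 0.0448% (WT) and 0.0412% (SKG). Among segments with a stop codon or without the GT, only *Traj54* and *Traj20* had any *Trav9d-3* sequence.

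The comparison with *Trav9d-3* within each genotype took the 43 segments that reached 0.1% in a *Trav11* or a *Trav9d-3* library. In WT libraries 22 were at least 2-fold lower with *Trav11* (51.2%) and 13 at least 2-fold higher (30.2%). In SKG libraries 22 were lower (51.2%) and 12 higher (27.9%). *Traj45*, *Traj44*, *Traj30*, *Traj23*, *Traj22*, *Traj7* and *Traj5* entered through *Trav9d-3* alone, so that their lower share with *Trav11* followed from the selection. No segment entered through *Trav11* alone, so the counts of lower and higher segments are not on an equal footing. *Traj18* was among the higher ones, at 10.2% of all *Trav11* against 3.07% of *Trav9d-3* sequences in WT libraries and 10.1% against 3.54% in SKG libraries. *Traj57*, at 7.31% against 2.44% in WT and 4.92% against 1.43% in SKG libraries, and *Traj32*, at 9.23% against 4.31% and 9.78% against 3.58%, were higher as well. Against *Trav19* the same 43 segments were compared, whatever their *Trav19* share. *Traj7* and *Traj5* reached 0.1% with neither *Trav11* nor *Trav19*. In WT libraries 17 of the 43 were at least 2-fold lower with *Trav11* (39.5%) and 15 higher (34.9%). In SKG libraries 16 were lower (37.2%) and 18 higher (41.9%).

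A group of segments with low *Trav11* use had the same ending of the heptamer. This grouping by the last 4 bases of the *Traj* heptamer was chosen after the values were seen and has no test. Of the 59 annotated heptamers, read in the plus orientation next to the segment, 13 end in AGTG (22.0%), 31 in TGTG (52.5%) and 4 in GGTG (6.78%). All 11 compared segments with the ending AGTG were at least 2-fold lower with *Trav11* than with *Trav9d-3*, in WT and in SKG libraries. They were *Traj58*, *Traj52*, *Traj49*, *Traj44*, *Traj30*, *Traj24*, *Traj23*, *Traj22*, *Traj13*, *Traj7* and *Traj2*, and they lie along the whole array. Of them, *Traj44*, *Traj30*, *Traj23*, *Traj22* and *Traj7* held under 0.1% of both *Trav11* libraries and entered the comparison through *Trav9d-3* alone. A lower share of these with *Trav11* thus followed from the selection, and the values below include them. The rest reached 0.1% of a *Trav11* library. The median log2 ratio of *Trav11* to *Trav9d-3* share over the 11 was -3.25 in WT libraries, reached at *Traj24*, and -4.09 in SKG libraries, reached at *Traj58*. Over all 43 segments the median was -1.04 and -1.02. Together the 11 held 1.91% of *Trav11* and 23.4% of *Trav9d-3* sequences in WT libraries, and 1.81% and 22.8% in SKG libraries.

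The 27 compared segments with the ending TGTG went both ways. At least 2-fold lower with *Trav11* were 8 in each genotype, and at least 2-fold higher 11 in WT and 10 in SKG libraries. Without a fold limit, 15 in WT and 16 in SKG libraries had a higher share with *Trav11*. Together the 27 held 87.3% of *Trav11* and 67.9% of *Trav9d-3* sequences in WT and 89.8% and 69.1% in SKG libraries. Low *Trav11* use was also found in this group, as at *Traj16*, which held 0.222% of *Trav11* and 2.68% of *Trav9d-3* sequences in WT libraries, and at *Traj12*, at 0.574% and 4.33%. Of the 4 segments with GGTG, *Traj45*, *Traj37* and *Traj5* were lower and *Traj57* higher with *Trav11*. *Traj45* and *Traj5* likewise entered the comparison through *Trav9d-3* alone. Against *Trav19*, 8 of the 11 segments with AGTG were at least 2-fold lower with *Trav11* in WT libraries and 7 in SKG libraries. Over all 43 segments 39.5% and 37.2% were. At least 2-fold higher with *Trav11* than with *Trav19* were *Traj13* in WT libraries and *Traj24* in SKG libraries. *Traj7*, among the lower ones in WT libraries, held only 0.0381% with *Trav19* there, and it had no sequence with either in SKG libraries. Because the *Trav* primer, the *Trav* position and the signal all differ between amplicons, they cannot be told apart here.

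**Figure D5:**
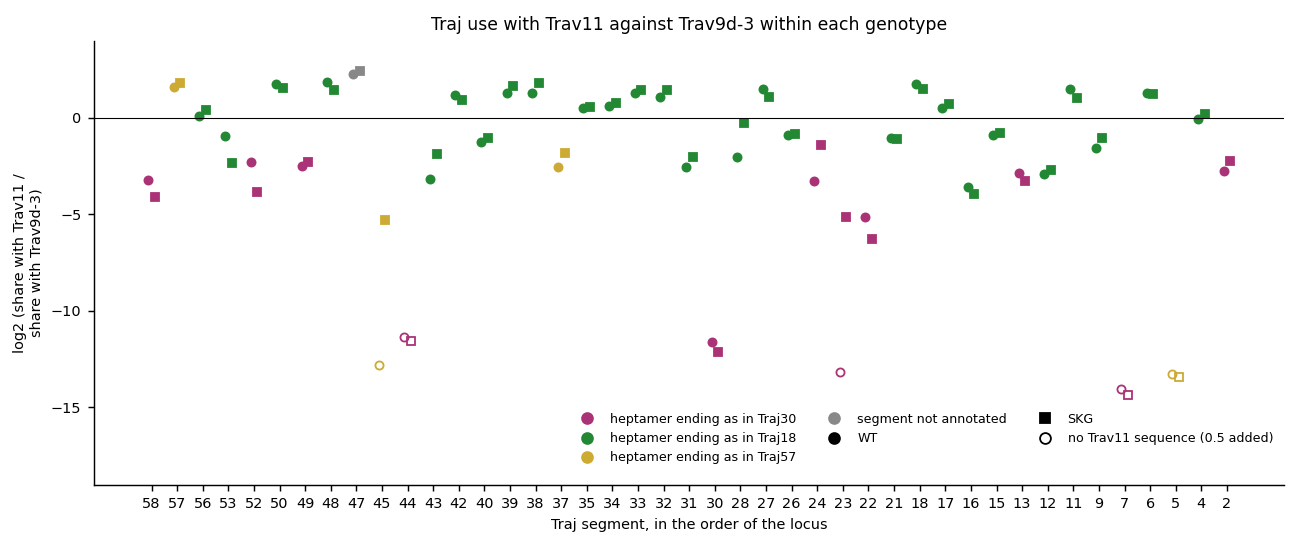
Log2 ratio of the share of each *Traj* segment with *Trav11* to its share with *Trav9d-3*, sequences of every functionality class, in WT (circles) and SKG (squares) libraries. Colours mark the last 4 bases of the *Traj* heptamer by a segment that carries them, and open symbols have no *Trav11* sequence and rest on the 0.5 added to the count. The 11 segments with the ending of *Traj30* all lie below 0 in both genotypes. Among them *Traj44*, *Traj30*, *Traj23*, *Traj22* and *Traj7* were included through their *Trav9d-3* share alone.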

How the data were processed

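Per the labels and the paper's methods, the authors amplified cDNA of sorted thymocytes with a *Trav11* forward primer and a constant region reverse primer, sequenced it on a MiSeq, assembled read pairs into clonal sequences with MiXCR, used cutadapt 1.13 to trim primers, discarded identical sequences and took gene assignments from IMGT/HighV-QUEST at default options. The deposited lists hold text assignments (functionality, V and J gene and allele) for each distinct sequence and no read counts, so read depth is unknown, and a share counts distinct sequences, neither reads nor cells. Removal of duplicates lowers the weight of abundant rearrangements, and copies that differ by an error would count again.

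Sequences were counted per *Traj* gene. Segments were called when they held 0.1% or more of 1 library and their shares differed by 1.5-fold, or by 2-fold between amplicons (*Trav9d-3* being the sequences of the Trav9 libraries that list it). The segments compared with *Trav19* were those of the comparison with *Trav9d-3*. A count of 0 was given the limit of 3 sequences. Named segments were *Traj18*, the 5 most used per library and class, those with at least 1% past 1.5-fold, the 3 lowest and 3 highest productive shares, and those with under 10 sequences, and additions are marked. The members and lists were chosen with earlier results of these data known.

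Sequences, stop codons and signals were read from NCBIM37 with its GENCODE annotation, and unnamed *Tcra* gene models were named by matching to the RefSeq table of GRCm38.p6, whose coordinates were not used. The labels name mm10. Of 102 annotated *Trav* segments, 81 had a CAC at the end of the coding exon or within 2 bases of it. Calculations used Python 3.11.15, numpy 2.4.6, pandas 2.3.3, scipy 1.17.1 and matplotlib 3.10.9 and were tested on simulated data. Alternatives were the functionality class, the first listed *Traj* gene, the minimum share, the fold, the weighting of segments and the denominator, and, chosen after the data were seen, the genotype and the amplicon of the comparison with other *Trav* segments.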

Additional observations from a re-analysis of the deposited data

Results flagged for a closer look

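Sequences whose V assignment named neither *Trav11* nor *Trav11d* took no part in the comparisons and are given here as values, since they are a signal outside the main measurement. In the WT library they were 224 sequences, 0.0897% (95% Wilson interval 0.0787 to 0.102) of those listed. In the SKG library they were 390 sequences, 0.142% (0.128 to 0.157). All 224 WT sequences listed *Trav8d-2* first, as did 368 of the SKG sequences, and the other 22 listed *Trav8-2*. They spread over 17 *Traj* segments in the WT library, most often *Traj13* (56 sequences), and over 21 in the SKG library, most often *Traj34* (85 sequences). Productive sequences made up 61.6% of them in the WT and 83.3% in the SKG library.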

How the results depend on the processing

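The count of 8 segments past 1.5-fold in productive sequences was 10 with every functionality class and 8 with the first listed *Traj* gene or a minimum share of 0.01%. It was 15 in unproductive sequences, 3 with a minimum of 1%, 20 at a threshold under 1.5-fold and 5 at 2-fold. The largest cumulative gap of 8.63 points was 7.10 in unproductive sequences and 7.62 with every class. The difference of 0.435 points in the productive share was 0.631 with SKG segments weighted by their WT shares. Against other amplicons, 35 of 43 segments were past 2-fold in WT libraries, 34 in SKG libraries and 32 with *Trav19*. Of the log2 ratios of named segments, 14 of 17 moved beyond their 95% counting interval in unproductive sequences and 11 of 17 with every class, and none of 15 did without *Traj18* and *Traj32* in the denominator. Alternatives with *Trav11* alone, with *Trav11d* alone and without sequences that list both were not run, since the V assignments list both genes. No paired analysis was possible because there was 1 library per genotype and the labels give no replicate numbers. That limits the precision beyond counting error. Genotype cannot be told apart from the mice, the PCR and the sequencing of each library.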

Other observations

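For the *Traj* segments with more than 1 listed allele, the most frequent allele was the same in both libraries. *Traj32* was listed as allele 2 in 99.97% of WT and 99.94% of SKG sequences, and *Traj35* as allele 2 in 99.4% and 99.6%. *Traj42* was listed as allele 1 in 99.9% of sequences in each library, *Traj21* in 99.5% (WT) and 99.4% (SKG), and *Traj34* in 98.6% and 98.8%. *Traj31* was listed as allele 2 in 87.6% of WT and 81.9% of SKG sequences, as allele 1 in 12.02% and 10.8%, and with several alleles in 0.396% and 7.31%. *Traj43* was allele 1 in 99.4% of WT and 92.4% of SKG sequences, and listed several alleles in 0.279% and 6.93%. *Traj9* was allele 1 in 92.7% and 90.3%, allele 2 in 0.222% and 3.39%, and listed several alleles in 7.11% and 6.33%. The shares of the less frequent assignments thus differed between the libraries at *Traj31*, *Traj43* and *Traj9*.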
